A study of Mus musculus with 35 samples.

Results

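The genes described here code for the collagens and nidogens of the basement membrane, namely *Col4a1*, *Col4a2*, *Col4a3*, *Col4a4*, *Col4a5*, *Col4a6*, *Col15a1*, *Col18a1*, *Nid1* and *Nid2*. They were taken by symbol and make up 10 of the 22830 gene symbols in each of 2 count tables, and where a symbol had several transcript rows the row with the most reads was used. Bulk RNA-seq was performed on biopsies from the middle of healing excisional skin wounds in mice, in 35 libraries that fall into 8 groups. The first table holds wounds at day 14 after injury, with 7 WT, 7 Col5a1CKO and 3 Col5a1CKO wounds injected with WT fibroblasts, and wounds at day 19, with 3 WT and 3 Col5a1CKO. The second table holds the cilengitide experiment at day 14, with 4 WT wounds and 4 Col5a1CKO wounds given vehicle and 4 Col5a1CKO wounds given cilengitide.

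Col5a1CKO animals carried the tamoxifen-inducible *Col1a2*CreERT transgene and both *Col5a1* alleles floxed, so that *Col5a1*, which codes for a chain of fibril-forming type V collagen, was deleted in the fibroblasts in which the *Col1a2* promoter drives Cre and was left intact in other cells. WT animals were littermates with both floxed alleles and no Cre, and both genotypes received tamoxifen. Young adult males and females on a C57BL/6 background were used. WT fibroblasts from skin were placed intradermally in the wound bed a few days after injury. The study describes the day 14 animals without fibroblasts as given vehicle where it sets them beside fibroblast-treated animals. Where it describes day 14 and day 19 wounds together it mentions no vehicle, and the labels of the first table mention none. Cilengitide, an inhibitor of the alpha v integrins, was injected intraperitoneally every day from the day before wounding, and PBS served as vehicle. One field of the sample records assigns WT fibroblasts to the day 19 Col5a1CKO wounds, whereas their titles and the study's design text do not, and the titles were followed.

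Basement membranes are thin sheets of matrix under epithelia and around blood vessels, muscle fibers, fat cells and nerves. Their type IV collagen network is built from heterotrimers: the alpha1 and alpha2 chains make the form found in almost every basement membrane, the alpha3, alpha4 and alpha5 chains make a form best known from kidney glomeruli, and the alpha5 and alpha6 chains combine in a form of skin and smooth muscle, which in skin lies at the junction of epidermis and dermis. Nidogens bind laminin on the one hand and type IV collagen on the other, and type XV and type XVIII collagens are proteoglycan collagens of the outer face of vascular and epithelial basement membranes, with type XVIII collagen being the source of endostatin.

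The type IV collagen genes sit in head-to-head pairs. In the build of the files (NCBI37/mm9, GENCODE vM1 annotation), *Col4a1* (chromosome 8, 11198423 to 11312826, minus strand) and *Col4a2* (chromosome 8, 11312805 to 11449287, plus strand) overlap by 22 bases at their starts. Any part of the shared start in the levels of the pair was not tested. Those bases are shown because both genes start there, read on the plus strand at chr8:11312805-11312826 and without motifs marked.
Col4a1 and Col4a2 starts: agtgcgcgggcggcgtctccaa
The starts of *Col4a4* (chromosome 1, 82447298 to 82583424, minus strand) and *Col4a3* (chromosome 1, 82583496 to 82718634, plus strand) were 71 bases apart. *Col4a6* (X chromosome, 137599946 to 137908619, minus strand) and *Col4a5* (X chromosome, 137909928 to 138123778, plus strand) were separated by 1308 bases. The 250 bases before each of their RefSeq starts in GRCm38.p6 are shown because both genes fell together in vehicle-treated Col5a1CKO wounds, *Col4a6* at chrX:141474077-141474326 on the minus strand and *Col4a5* at chrX:141475169-141475418 on the plus strand, with motif matches in capitals.
Col4a6: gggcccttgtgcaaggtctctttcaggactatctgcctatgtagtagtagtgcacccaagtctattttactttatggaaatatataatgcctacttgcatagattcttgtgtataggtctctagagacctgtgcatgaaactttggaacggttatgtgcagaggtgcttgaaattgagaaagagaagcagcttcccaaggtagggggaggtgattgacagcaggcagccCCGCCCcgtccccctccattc
Col4a5: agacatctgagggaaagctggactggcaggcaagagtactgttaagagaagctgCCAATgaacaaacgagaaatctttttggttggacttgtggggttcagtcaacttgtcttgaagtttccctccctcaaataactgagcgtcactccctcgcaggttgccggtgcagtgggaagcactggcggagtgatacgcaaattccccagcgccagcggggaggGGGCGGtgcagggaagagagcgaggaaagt
The letters searched on both strands were the GC box GGGCGG, the CCAAT box CCAAT, the TATA box TATAAA and the AP-1 site TGANTCA, and the matches did not overlap. Each window held 1 GC box, which 32.7% of 32851 windows of the same length held, and *Col4a5* also held 1 CCAAT box, present in 33.8% of windows. Neither window held a TATA box (12.4% of windows) or an AP-1 site (6.75% of windows). RefSeq start windows were present for 8 of the 10 genes and absent for *Col4a3* and *Nid2*, and only those of *Col4a6* and *Col4a5* are shown here.

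The remaining genes lie apart, *Col15a1* on chromosome 4 (47221033 to 47326039, plus strand), *Col18a1* on chromosome 10 (76514923 to 76629293, minus strand), *Nid1* on chromosome 13 (13529869 to 13604542, plus strand) and *Nid2* on chromosome 14 (20570479 to 20631009, plus strand).

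Libraries of the first table held between 15043531 and 35700337 reads in the rows used and those of the second between 51211600 and 68266760, and levels are given as CPM, counts scaled to the library size with TMM factors within a table, so that levels of the 2 tables are not compared. At these depths 3 counts, the limit that a count of 0 allows, correspond to at most 0.199 CPM in the first table and 0.059 CPM in the second, which covers counting error only. At day 14 the libraries formed 2 sets that differed in the levels of GC-rich against GC-poor genes, a lower set with WT a to d and Col5a1CKO a to e and an upper set with the others, and were 1.54 log2 units apart in that measure, where the next widest gap was 0.395, and all fibroblast-treated and day 19 wounds were in the upper set. In the upper set at day 14 the 3 WT libraries carried reads of Y-linked genes and the 5 Col5a1CKO libraries, with or without fibroblasts, carried *Xist*, so that sex and group cannot be told apart there. In the lower set WT c and d and Col5a1CKO e carried *Xist*, and the others carried Y-linked reads. At day 19 WT replicate a carried Y-linked reads, and the other WT wounds and every Col5a1CKO wound carried *Xist*. Replicate 2 of vehicle-treated Col5a1CKO stood apart in carrying neither, with *Xist* at 1.01 CPM and *Ddx3y* at 0.0 CPM. *Col5a1* itself ranged from 347 to 2386 CPM in WT and from 170.0 to 663 CPM in Col5a1CKO at day 14 (log2 fold change -1.43 ± 0.49 SE, adjusted p = 0.0757), from 515 to 5425 against 617 to 1092 CPM at day 19, and from 449 to 2657 against 252 to 1319 CPM in the vehicle groups, and its groups overlapped in all 3. In the lower set of day 14, however, *Col5a1* was 170.0 to 663 CPM in every Col5a1CKO wound and 846 to 2386 CPM in every WT wound, whereas in the upper set the WT wounds were at 347 to 380 CPM and the Col5a1CKO wounds at 231 and 352 CPM. The fibroblast and keratinocyte markers that define wounded skin were present in every library, with no keratinocyte or fibroblast marker at 0.

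Fold changes below come from edgeR's quasi-likelihood test fitted over all genes between the named groups, with Benjamini-Hochberg adjustment. A gene is said to have changed where its adjusted p was under 0.05 and its change at least 2-fold. In wounded whole tissue, fewer cells of a type and less RNA per cell cannot be told apart. Per kilobase of transcript (RPKM), the order of medians in WT wounds at day 14 was *Nid1* at 34.1, *Col18a1* at 28.2, *Col4a1* at 19.9, *Col4a2* at 12.2, *Col15a1* at 6.47, *Nid2* at 4.44, *Col4a5* at 1.32 and *Col4a6* at 0.61 RPKM, with *Col4a4* and *Col4a3* under 0.1 RPKM. This order differed between the library sets, with WT medians of 40.8 for *Nid1*, 36.9 for *Col4a1* and 22.5 RPKM for *Col18a1* in the lower set against 8.76, 12.1 and 47.9 RPKM in the upper set. In Col5a1CKO wounds at day 14 *Col4a1* led at 95.4 RPKM, followed by *Nid1* at 72.2, *Col4a2* at 55.5, *Col18a1* at 43.3 and *Col15a1* at 39.8 RPKM. The ranges of neighbours in both orders overlapped, for instance 6.17 to 52.2 RPKM for *Nid1* and 14.6 to 59.0 RPKM for *Col18a1* in WT.

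**Figure D1:**
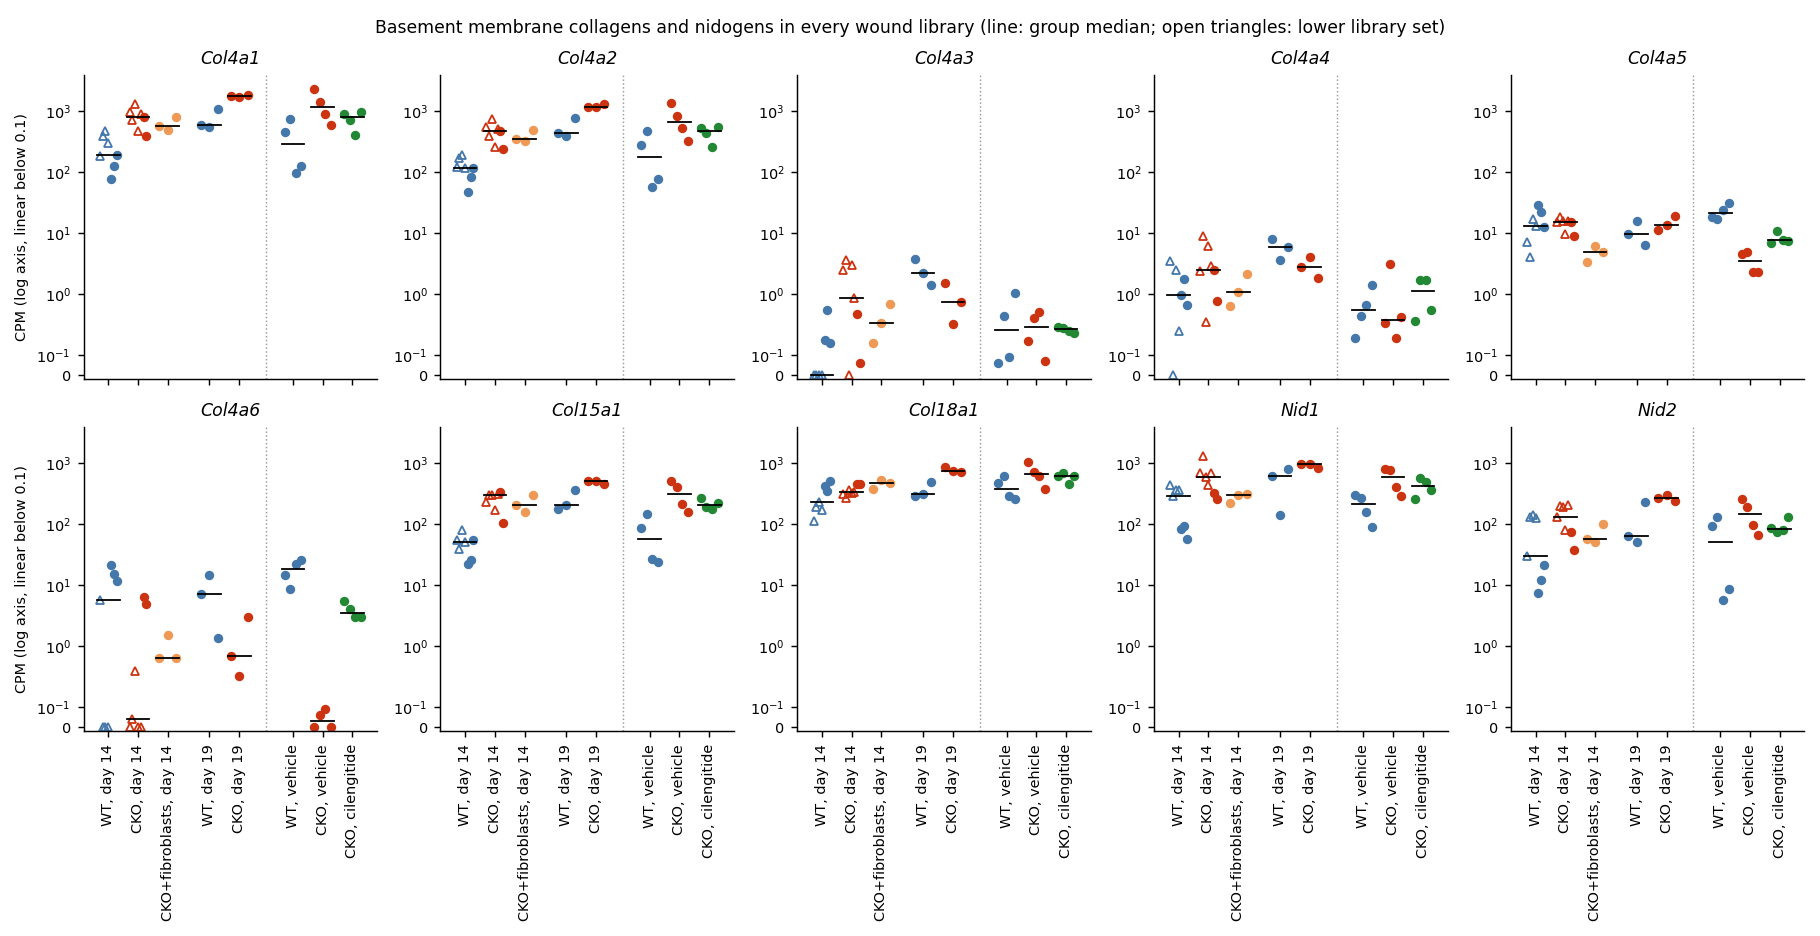
Levels of the 10 genes in all 35 libraries, in CPM on a log axis that is linear below 0.1 CPM, by group; each point is a library, the line is the group median, open triangles mark the lower library set of day 14 and the dotted line separates the 2 count tables. *Col4a1*, *Col4a2* and *Col15a1* had higher medians in Col5a1CKO (CKO) than in WT wounds in each genotype comparison, and *Col4a6* in vehicle-treated Col5a1CKO wounds lay at or below 0.09 CPM.

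The ubiquitous chains of type IV collagen, *Col4a1* and *Col4a2*, were higher in Col5a1CKO wounds at day 14, and so was *Col15a1*. *Col4a1* spanned 76.3 to 476 CPM in WT with a median of 190.3, and 386 to 1308 CPM in Col5a1CKO with a median of 817. *Col4a2* spanned 47.8 to 189 CPM in WT with a median of 117, and 242 to 746 CPM in Col5a1CKO with a median of 469. *Col15a1* spanned 22.3 to 80.0 CPM in WT with a median of 51.6, and 105 to 340.3 CPM in Col5a1CKO with a median of 300.3. Every Col5a1CKO wound exceeded every WT wound for *Col4a2* and *Col15a1*, whereas for *Col4a1* the lowest Col5a1CKO wound lay within the WT range. Of the 8 genes tested, these 3 rose and none fell, where 5.57% of 14367 genes rose and 2.71% fell. The groups did not overlap for 2 of the 10 genes, against 2.23% of genes of at least 1 CPM that were higher and 1.74% that were lower without overlap.

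*Col15a1* rose 5.34-fold (log2 fold change 2.42 ± 0.33 SE, adjusted p = 0.00314), *Col4a2* 3.73-fold (1.90 ± 0.33, adjusted p = 0.00563) and *Col4a1* 3.17-fold (1.66 ± 0.40, adjusted p = 0.0191). The median log2 fold change over the 8 genes tested was 1.31, where that of all genes was -0.03. *Col18a1* did not pass over all libraries, with WT wounds at 115 to 505 CPM around Col5a1CKO wounds at 268 to 462 CPM (log2 fold change 0.36 ± 0.30, adjusted p = 0.462). In the lower set *Col18a1* was at 268 to 365 CPM in Col5a1CKO wounds and at 115 to 233 CPM in WT wounds. Shares of genes without overlap were not computed within a set. The log2 difference of *Col18a1* there was 0.83 (adjusted p = 0.0335), which is under 2-fold, and the upper-set difference was 0.18 (adjusted p = 0.606). Within the lower set the same 3 genes rose, by 2.20 (*Col15a1*), 1.70 (*Col4a2*) and 1.35 (*Col4a1*) on the log2 scale, where 3.68% of genes rose. Within the upper set, with 3 WT and 2 Col5a1CKO wounds, the fitted differences were 2.77, 2.19 and 2.29, at adjusted p of 0.0655, 0.058 and 0.0601, and *Nid1* alone passed, where 8.81% of genes rose.

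The nidogens had wider ranges at day 14. *Nid1* spanned 56.7 to 441 CPM in WT with a median of 289, and 259 to 1316 CPM in Col5a1CKO with a median of 596 and replicate b highest. *Nid2* spanned 7.46 to 143 CPM in WT with a median of 30.2, and 37.9 to 205 CPM in Col5a1CKO with a median of 131. Neither passed the test over all libraries, with log2 differences of 1.32 ± 0.50 (adjusted p = 0.103) for *Nid1* and 0.94 ± 0.64 (adjusted p = 0.363) for *Nid2*. Both nidogens differed between the library sets in WT. Among WT wounds *Nid1* was 289 to 441 CPM in the lower set and 56.7 to 92.2 CPM in the upper set, a log2 difference of -2.32 ± 0.23 (adjusted p = 0.000148), and *Nid2* differed by -3.06 ± 0.59 (adjusted p = 0.00408), where 15.7% of genes were lower and 16.2% higher in the upper set. *Col4a1* was also lower in the upper set (-1.46, adjusted p = 0.0166) and *Col18a1* higher (1.19, adjusted p = 0.00463). Among Col5a1CKO wounds the set differences did not pass for *Nid1* (-1.35, adjusted p = 0.102), *Nid2* (-1.53, adjusted p = 0.0774) or *Col4a1* (-0.56, adjusted p = 0.489). With the set as a covariate the log2 fold change of *Nid1* was 1.35 ± 0.26 and passed (adjusted p = 0.00318), and *Col15a1*, *Col4a1* and *Col4a2* kept their calls, where 9.04% of genes rose.

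The minor chains of type IV collagen were scarce in these wounds. *Col4a3* had no read in the 4 lower-set WT wounds and in Col5a1CKO replicate c, and reached at most 100 counts (3.65 CPM), in Col5a1CKO replicate b. *Col4a4* lay between 0.0 and 9.0 CPM. *Col4a6* was tied to the library set: it had 88 counts in WT replicate a and none in the other 3 lower-set WT wounds, at most 9 counts in the 5 lower-set Col5a1CKO wounds, and 282 to 461 counts in the 3 upper-set WT wounds against 205 and 156 in the 2 upper-set Col5a1CKO wounds. *Col4a3* and *Col4a6* did not pass the filter on low counts at day 14 and were not tested there. *Col4a5* ran from 4.06 to 29.2 CPM in WT wounds, and all Col5a1CKO wounds, at 9.0 to 18.1 CPM, lay inside this range (log2 fold change -0.07 ± 0.36, adjusted p = 0.918).

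At day 19 *Col4a1*, *Col4a2*, *Col15a1*, *Col18a1*, *Nid1* and *Nid2* lay higher in each Col5a1CKO wound than in each WT wound. *Col4a1* measured 601, 550.1 and 1072 CPM in WT and 1792, 1719 and 1865 CPM in Col5a1CKO. *Col4a2* measured 448, 388 and 767 CPM in WT and 1181, 1190.2 and 1302 CPM in Col5a1CKO. *Col18a1*, the endostatin precursor, measured 295, 307 and 488 CPM in WT and 859, 743 and 720.2 CPM in Col5a1CKO. WT replicate c was the highest WT wound for all 3. *Col15a1* (175, 203 and 360 CPM in WT, 509, 513 and 459 CPM in Col5a1CKO), *Nid1* (607, 141 and 811 CPM in WT, 965, 981 and 845 CPM in Col5a1CKO) and *Nid2* (65.0, 50.6 and 227 CPM in WT, 271, 303 and 244 CPM in Col5a1CKO) did not overlap either. In all, 6 of the 10 genes were higher without overlap, where 16.8% of genes of at least 1 CPM were and 18.8% were lower.

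None of the 10 passed edgeR's test at day 19, where 3 of 15135 genes rose (0.0198%) and none fell (0.0%), while 4 members had an unadjusted p under 0.05 and DESeq2 called 4, *Col4a1*, *Col4a2*, *Col15a1* and *Col18a1*, where it called 4.43% of genes higher. The fitted differences were 1.32 ± 0.40 for *Col4a1* (adjusted p = 0.148), 1.24 ± 0.38 for *Col4a2* (adjusted p = 0.148), 1.15 ± 0.32 for *Col18a1* (adjusted p = 0.138) and 1.06 ± 0.35 for *Col15a1* (adjusted p = 0.162) on the log2 scale. Without WT replicate c, edgeR called 5 members higher, those 4 and *Nid2*, where 2.66% of genes rose. *Col4a6* measured 7.04, 14.8 and 1.38 CPM in WT and 0.69, 0.32 and 3.0 CPM in Col5a1CKO, so that the highest Col5a1CKO wound exceeded the lowest WT wound (log2 difference -2.44 ± 1.09, adjusted p = 0.230). The difference between genotypes at day 19 was tested against that at day 14 and no member was called (0.0% of 15954 genes in either direction), with 2 at an unadjusted p under 0.05 and none by DESeq2. For *Col15a1* the genotype difference was 1.38 lower on the log2 scale at day 19 (SE 0.55, adjusted p = 0.733), with *Col15a1* in WT wounds at 175 to 360 CPM at day 19 against 22.3 to 80.0 CPM at day 14.

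**Figure D2:**
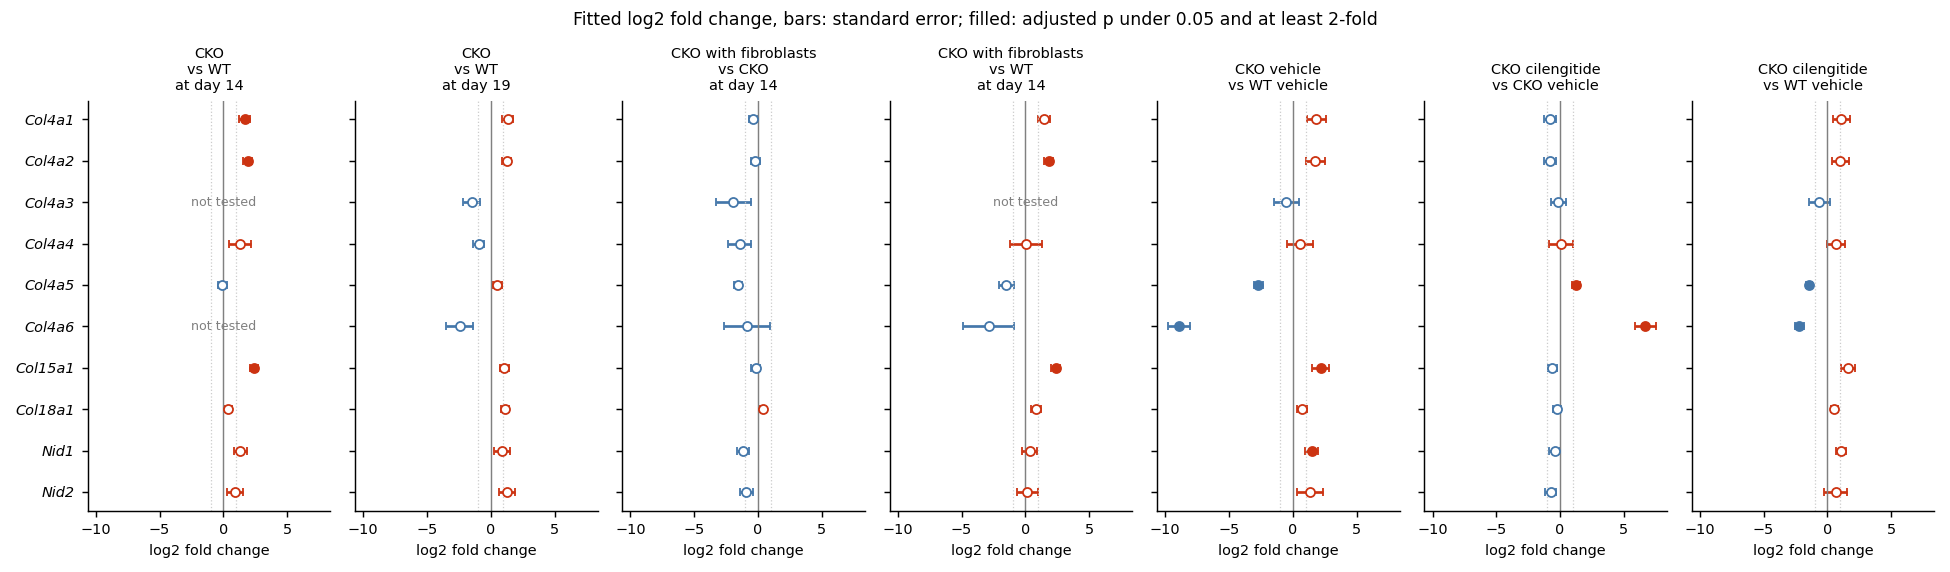
Fitted log2 fold change of each gene in the 7 comparisons, first group over second, with bars for the standard error, red above and blue below 0 and dotted lines at 2-fold; filled points passed adjusted p under 0.05 and at least 2-fold, and "not tested" marks genes under the filter on low counts. *Col15a1* was filled in the genotype comparisons of day 14 and of the vehicle groups, and *Col4a5* and *Col4a6* were filled in all 3 comparisons of the cilengitide experiment. Those 3 comparisons share their groups and are not independent.

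Injection of WT fibroblasts into Col5a1CKO wounds was compared with Col5a1CKO wounds without fibroblasts and with WT wounds at day 14, comparisons that share their samples with the genotype comparison. *Col4a1* measured 564, 493.3 and 817 CPM, *Col4a2* 357, 322 and 494 CPM and *Col15a1* 207, 161 and 302 CPM in the 3 fibroblast-treated wounds. All of these lay within the Col5a1CKO range and above the WT maximum. No gene passed edgeR's test against Col5a1CKO wounds (0.0% of 15659 genes in either direction), 2 members had an unadjusted p under 0.05, and DESeq2 called *Col4a5* alone, lower, where it called 0.0619% of genes lower. *Col4a5* measured 3.36, 6.26 and 4.86 CPM with fibroblasts, below the lowest of the 7 Col5a1CKO wounds at 9.0 CPM (log2 difference -1.56 ± 0.31, edgeR adjusted p = 0.365), and 1.8% of genes were lower and 0.332% higher without overlap. *Nid1*, at 222, 306 and 315 CPM, differed by -1.15 ± 0.47 (adjusted p = 0.367). All 3 treated wounds were in the upper library set and 5 of the 7 Col5a1CKO wounds in the lower, and against the 2 upper-set Col5a1CKO wounds, at 259 and 330 CPM, the difference of *Nid1* was -0.01 ± 0.27. That of *Col4a5* was -1.26 ± 0.39 there (adjusted p = 0.9999 for both).

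Against WT wounds, 2 of the 9 genes tested rose after fibroblast injection, *Col15a1* by 2.37 ± 0.38 (adjusted p = 0.00459) and *Col4a2* by 1.81 ± 0.37 (adjusted p = 0.0146) on the log2 scale, where 3.77% of genes rose and 2.06% fell. Each of the 3 genes *Col4a1*, *Col4a2* and *Col15a1* was higher without overlap, where 9.66% of genes were. All fibroblast-treated wounds were in the upper library set, and against the 3 upper-set WT wounds 5 members rose and 2 fell, where 19.8% of genes rose and 11.2% fell. In that set *Col15a1* (2.83), *Nid2* (2.50), *Col4a1* (2.40), *Col4a2* (2.38) and *Nid1* (2.0) were higher, and *Col4a6* (-3.95 ± 0.43, adjusted p = 0.000648) and *Col4a5* (-2.0 ± 0.36, adjusted p = 0.00403) were lower on the log2 scale. *Col4a6* had 20, 54 and 22 counts with fibroblasts there, against 461, 447 and 282 in WT. These WT wounds carried Y-linked reads and the treated wounds *Xist*, so that sex and group cannot be told apart, also for the X-linked *Col4a5* and *Col4a6*.

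In the cilengitide experiment, *Col4a5* and *Col4a6*, whose chains combine in the form known from skin and smooth muscle, were lower in Col5a1CKO wounds with vehicle than in WT wounds with vehicle. *Col4a6* had 932, 480, 1233 and 1439 counts in the WT wounds and 0, 4, 4 and 0 counts in the Col5a1CKO wounds, a mean of 17.8 against 0.0375 CPM. The 8 reads of the Col5a1CKO group leave the size of its ratio imprecise, with a fitted log2 fold change of -8.89 ± 0.87 (adjusted p = 0.000626). *Col4a5* measured 18.7, 16.8, 24.1 and 31.5 CPM in WT and 4.61, 4.86, 2.33 and 2.28 CPM in Col5a1CKO, a 6.53-fold fall (log2 fold change -2.71 ± 0.36, adjusted p = 0.00128). For both genes no Col5a1CKO wound reached the lowest WT wound. Of the 10 genes, 2 fell and 2 rose, where 13.4% of 15434 genes fell and 17.5% rose, and groups were free of overlap for 27.7% of genes on the lower side and 24.1% on the higher side. Both calls held without any single library.

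*Col15a1* and *Nid1* rose in the same comparison. *Col15a1* measured 86.6, 147, 26.6 and 23.8 CPM in WT and 519, 408, 218 and 161 CPM in Col5a1CKO, without overlap (log2 fold change 2.19 ± 0.69, adjusted p = 0.0314). *Nid1* measured 298, 270.2, 158 and 88.6 CPM in WT and 818, 771, 402 and 287 CPM in Col5a1CKO, with the lowest Col5a1CKO wound under the highest WT wound (1.47 ± 0.49, adjusted p = 0.0381). WT wounds were split, replicates 1 and 2 being above replicates 3 and 4 for *Col15a1*, *Col4a1*, *Col4a2*, *Nid1* and *Nid2*. Leaving out any of WT replicates 3 and 4 or Col5a1CKO replicates 1 and 2 ended both calls, at adjusted p between 0.0608 and 0.0735 for *Col15a1* and between 0.0807 and 0.0978 for *Nid1*. *Nid1* alone was called higher without WT replicate 1, and *Col15a1* alone without Col5a1CKO replicate 3, whereas without WT replicate 2 *Col15a1*, *Col4a1* and *Col4a2* were called higher and *Nid1* was not.

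*Col4a1* measured 455, 751, 96.8 and 125 CPM in WT and 2334, 1417, 899 and 588 CPM in Col5a1CKO. *Col4a2* measured 283, 468, 57.2 and 77.5 CPM in WT and 1369, 821, 532 and 323 CPM in Col5a1CKO. For each the lowest Col5a1CKO wound lay under the highest WT wound, and the fitted differences, 1.86 ± 0.76 for *Col4a1* (adjusted p = 0.074) and 1.77 ± 0.76 for *Col4a2* (adjusted p = 0.0875), did not pass between these groups in edgeR. With all groups of the table in one edgeR fit both passed (adjusted p = 0.0308 and 0.0377), and DESeq2 called both, where it called 19.6% of genes higher. *Nid2* (1.34 ± 0.996, adjusted p = 0.291) and *Col18a1* (0.74 ± 0.39, adjusted p = 0.152) did not pass with either tool.

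With cilengitide, *Col4a5* and *Col4a6* were higher than in vehicle-treated Col5a1CKO wounds. The same vehicle-treated wounds served in the comparison with WT above, so that the fall there and the rise here are not independent. *Col4a6* had 386, 277, 186 and 182 counts (5.53, 4.07, 2.95 and 2.99 CPM), all above the 4 counts reached with vehicle (log2 fold change 6.68 ± 0.84, adjusted p = 0.00406). *Col4a5* measured 6.82, 10.9, 7.86 and 7.41 CPM, above the vehicle maximum of 4.86 CPM (1.22 ± 0.31, adjusted p = 0.0264). These were 2 of 10 genes, where 6.48% of 15563 genes rose and 6.59% fell, and 20.1% of genes were higher and 13.8% lower without overlap. Leaving out cilengitide replicate 1, 2 or 3, or vehicle replicate 3, ended the call of *Col4a5* and left that of *Col4a6*. Both remained below WT with vehicle, by -2.19 ± 0.38 for *Col4a6* and -1.47 ± 0.24 for *Col4a5* (adjusted p = 0.0193 for each), where 3.43% of 15514 genes fell, 5.15% rose and 17.2% were lower without overlap. Neither of these calls held without cilengitide replicate 2, 3 or 4. Among all genes tested those fits called 3, 1 and 1 higher and 0 lower, in place of 799 and 532.

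The other 8 genes did not pass between cilengitide and vehicle in Col5a1CKO wounds. *Col4a1* measured 893, 731, 408 and 967 CPM with cilengitide, inside the vehicle range but for its lowest wound (log2 difference -0.81 ± 0.46, adjusted p = 0.222). *Col15a1* measured 270.4, 191, 179 and 226 CPM (-0.60 ± 0.37, adjusted p = 0.252) and *Nid1* 254, 583, 488 and 370.1 CPM (-0.43 ± 0.40, adjusted p = 0.445). Against WT with vehicle *Col15a1* remained higher without overlap, as 14.9% of genes were, at 1.62 ± 0.57 on the log2 scale (adjusted p = 0.0757).

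*Col4a5* and *Col4a6* are X-linked, and the vehicle groups differed in sex markers. *Xist* was carried by 2 of 4 WT wounds and by no Col5a1CKO wound with vehicle, and by 2 of 4 wounds with cilengitide, and its part in the difference was not tested. Among WT wounds *Col4a6* was 14.6 and 22.5 CPM in those with *Xist* and 8.56 and 25.7 CPM in those with Y-linked reads. With cilengitide it was 4.07 and 2.95 CPM in those with *Xist* and 5.53 and 2.99 CPM in those with Y-linked reads.

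Markers of the cell types of the wound differed between the same groups. Counts of called markers here and in the next paragraph are to be read against the shares of all genes called. Those were 5.57% higher and 2.71% lower at day 14, and 3.77% and 2.06% for fibroblasts against WT. Between the vehicle groups they were 17.5% and 13.4%, for cilengitide against vehicle 6.48% and 6.59%, and against WT 5.15% and 3.43%. The summed level of 8 keratinocyte markers was 59532 to 96843 CPM in WT with vehicle, 122 to 11566 CPM in Col5a1CKO with vehicle and 32193 to 66843 CPM with cilengitide. Of the 8, 4 fell with vehicle on the log2 scale, *Krt15* (-7.01), *Krt10* (-8.39), *Krt1* (-7.55) and *Krt5* (-3.65), at a list median of -3.48. With cilengitide 3 rose, *Krt15* (5.17), *Krt10* (6.58) and *Krt1* (6.09), at a list median of 3.09. None of the 8 was at 0 in any library. Against WT, wounds with cilengitide had *Krt15*, *Krt10* and *Krt1* lower and *Dsg3* higher. Replicate 4 of Col5a1CKO with vehicle had the largest keratinocyte sum of its group, 11566 CPM, and no *Col4a6* read. At day 14 in the first table the keratinocyte sum was 30570 to 152991 CPM in WT, 47.6 to 57650 CPM in Col5a1CKO and 11533 to 28343 CPM with fibroblasts, and no marker passed the test. In upper-set WT wounds, where *Col4a6* reads were most frequent, it was 100440 to 152991 CPM, against 30570 to 33877 CPM in the lower set.

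The summed level of 10 endothelial markers was 70.8 to 474 CPM in WT with vehicle, 514 to 1160 CPM in Col5a1CKO with vehicle and 378 to 682 CPM with cilengitide. Of the 10, 5 rose in Col5a1CKO with vehicle (*Egfl7*, *Emcn*, *Pecam1*, *Tek* and *Esam*) and 5 at day 14 (*Kdr*, *Cdh5*, *Esam*, *Vwf* and *Pecam1*), and none passed with cilengitide against vehicle. The endothelial sum at day 14 was 110 to 345 CPM in WT, 341 to 849 CPM in Col5a1CKO and 407 to 723 CPM with fibroblasts, and at day 19 WT wounds had 433 to 825 CPM and Col5a1CKO wounds 896 to 1440 CPM. Of 10 markers of pericytes and smooth muscle, which share basement membrane with endothelium, 4 rose at day 14 (*Pdgfrb*, *Mcam*, *Myh11* and *Acta2*), and with vehicle *Tagln*, *Acta2*, *Mcam* and *Kcnj8* rose and *Notch3* fell. The sum of these pericyte and smooth muscle markers at day 14 was 359 to 1420 CPM in WT wounds, whereas Col5a1CKO wounds had 1050 to 2760 CPM, and 216 to 933 against 1435 to 3213 CPM with vehicle. Of 6 fibroblast markers 1 rose at day 14 (*Pdgfra*) and 2 with vehicle (*Dcn* and *Pdgfra*), with a summed level at day 14 of 8518 to 83992 CPM in WT wounds, whereas Col5a1CKO wounds had 31741 to 128395 CPM. Leukocyte markers rose as well, 4 of 7 at day 14 (*Csf1r*, *Itgam*, *Ptprc* and *Cd68*) and 6 of 7 with vehicle, and 5 of 7 fell with cilengitide (the same 4 and *Lyz2*). With fibroblasts *Kdr*, *Cdh5*, *Egfl7* and *Vwf* and the same 4 leukocyte markers were above WT. No marker of Schwann cells, skeletal muscle or adipocytes passed at day 14, and with vehicle 2 of 7 Schwann cell markers rose (*Pmp22* and *Cdh19*). The summed level of 7 skeletal muscle markers was uneven between wounds at day 14. It was 14.9 to 9294 CPM in WT (median 21.4) and 61.3 to 16280 CPM in Col5a1CKO (median 2146). All 7 had positive fitted differences at day 14 and day 19 (list medians 1.74 and 2.80) and negative ones with vehicle (-2.33), and 0 were called. The part of these cell types in the differences of the collagens and nidogens was not tested.

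**Figure D3:**
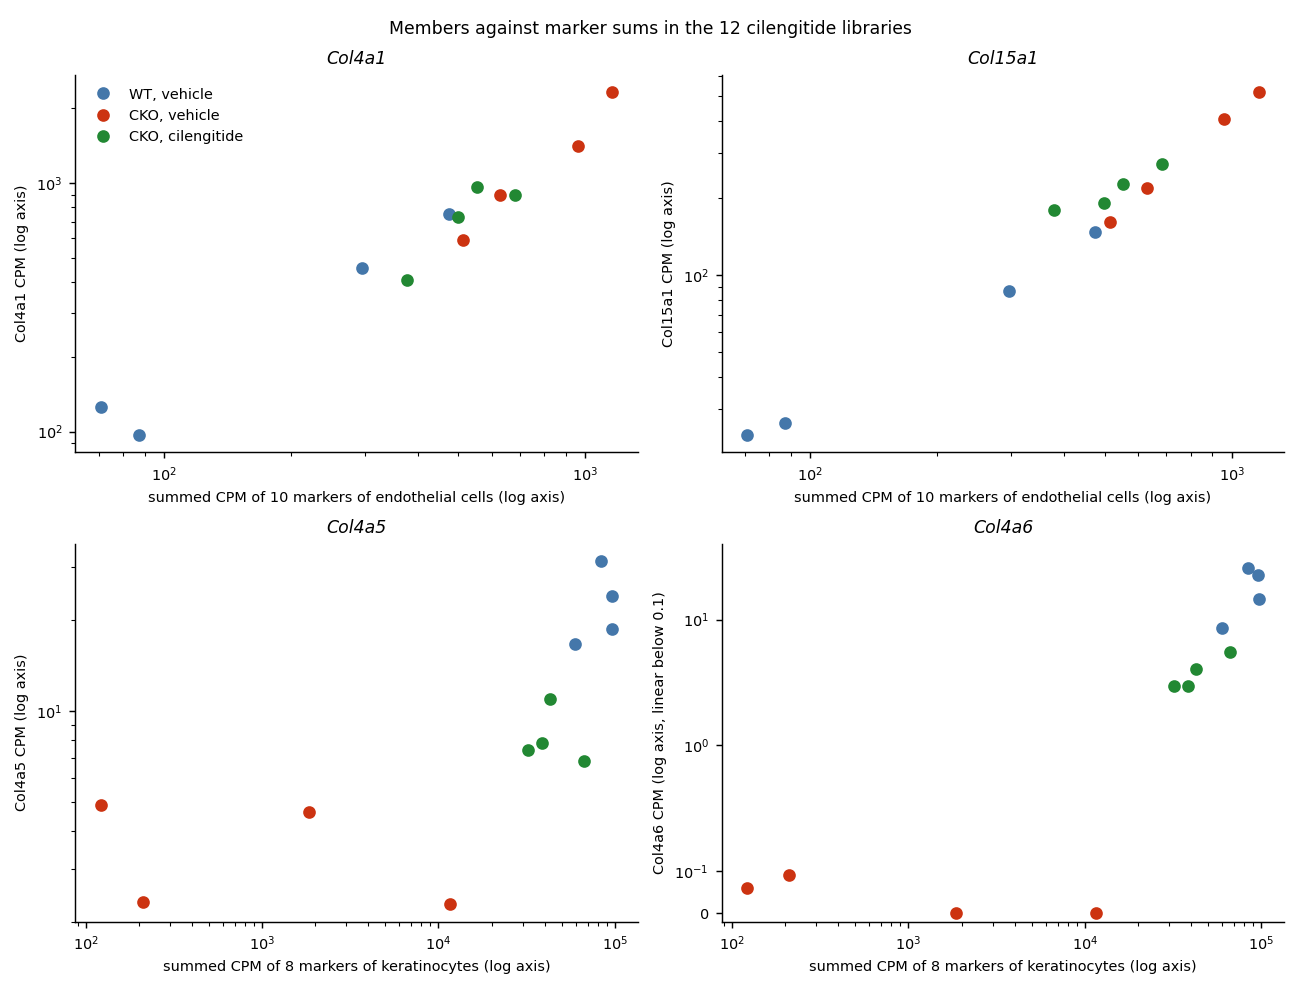
Levels of *Col4a1* and *Col15a1* against the summed CPM of 10 endothelial markers and of *Col4a5* and *Col4a6* against that of 8 keratinocyte markers in the 12 libraries of the cilengitide experiment, on log axes (linear below 0.1 CPM for *Col4a6*), 1 point a library. The 2 WT wounds with endothelial sums of 70.8 and 87.3 CPM had the lowest *Col4a1*, and vehicle-treated Col5a1CKO wounds lay at or under 0.09 CPM *Col4a6* at keratinocyte sums of 122 to 11566 CPM.

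The genes whose levels followed *Col4a1* most closely were found from the root mean square difference of log2(CPM + 1) after each gene was centred over the libraries of a table, which share depth and tissue and give a description only. *Col4a2* was nearest in both tables, at 0.254 over 23 libraries among 12069 genes and at 0.059 over 12 libraries among 11636 genes, where the median gene differed by 1.37 and 1.33. In the first table *Cacna1g*, *Pdgfrb*, *Mcam* and *Gpr116* followed, at 0.361 to 0.382. In the second *Kdr*, *Cdh5*, *Gpr116* and *Tie1* followed, at 0.148 to 0.266, of which *Kdr*, *Cdh5* and *Tie1* are receptors and a cadherin of endothelium. *Col15a1* ranked 16 and 14 and *Nid2* 98 and 97, whereas *Nid1* ranked 364 and 549 and *Col18a1* 1733 and 696. *Col4a5* ranked 7175 and 10658 and *Col4a6*, in the second table, 11151.

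The ratio of *Col4a1* to *Col4a2* counts within a library compares the chains that assemble into a single trimer, independently of depth. With vehicle it was 1.61, 1.61, 1.69 and 1.61 in WT and 1.71, 1.73, 1.69 and 1.82 in Col5a1CKO, so that the ranges met at their edges. At day 19 it was 1.34, 1.42 and 1.40 in WT and 1.52, 1.44 and 1.43 in Col5a1CKO. At day 14 the ratio was 1.60 to 1.88 in the 7 Col5a1CKO wounds, while in WT 3 lower-set wounds (b, c and d) lay at 2.37 to 2.61 and the other 4 at 1.49 to 1.63. No difference passed among the 14 ratio tests (exact 2-sided permutation tests over samples, adjusted p of 0.4 or more), and the smallest p that 3 against 3 samples allow is 0.1 and that 4 against 4 allow is 0.0286. The smallest p was that of fibroblast-treated against Col5a1CKO wounds, at a difference of the mean log2 ratio of -0.15 (exact permutation p = 0.0333, adjusted p = 0.4), which was -0.07 against the upper-set Col5a1CKO wounds (exact permutation p = 0.4). With vehicle the mean log2 ratio differed by 0.09 (exact permutation p = 0.0571, adjusted p = 0.4), and at day 14 by -0.11 over all wounds (exact permutation p = 0.426). It was -0.29 among lower-set wounds (exact permutation p = 0.0952) and 0.08 among upper-set wounds (exact permutation p = 0.4).

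The 2 nidogens were less tightly tied. The ratio of *Nid1* to *Nid2* ran from 2.03 to 27.2 over the 4 WT wounds with vehicle and from 3.16 to 4.28 over the 4 Col5a1CKO wounds, from 2.18 to 14.6 over the WT wounds at day 14 and from 3.06 to 6.84 over those of Col5a1CKO. No difference of its mean log2 ratio passed (exact permutation p of 0.429 or more, adjusted p of 0.8 or more).

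**Figure D4:**
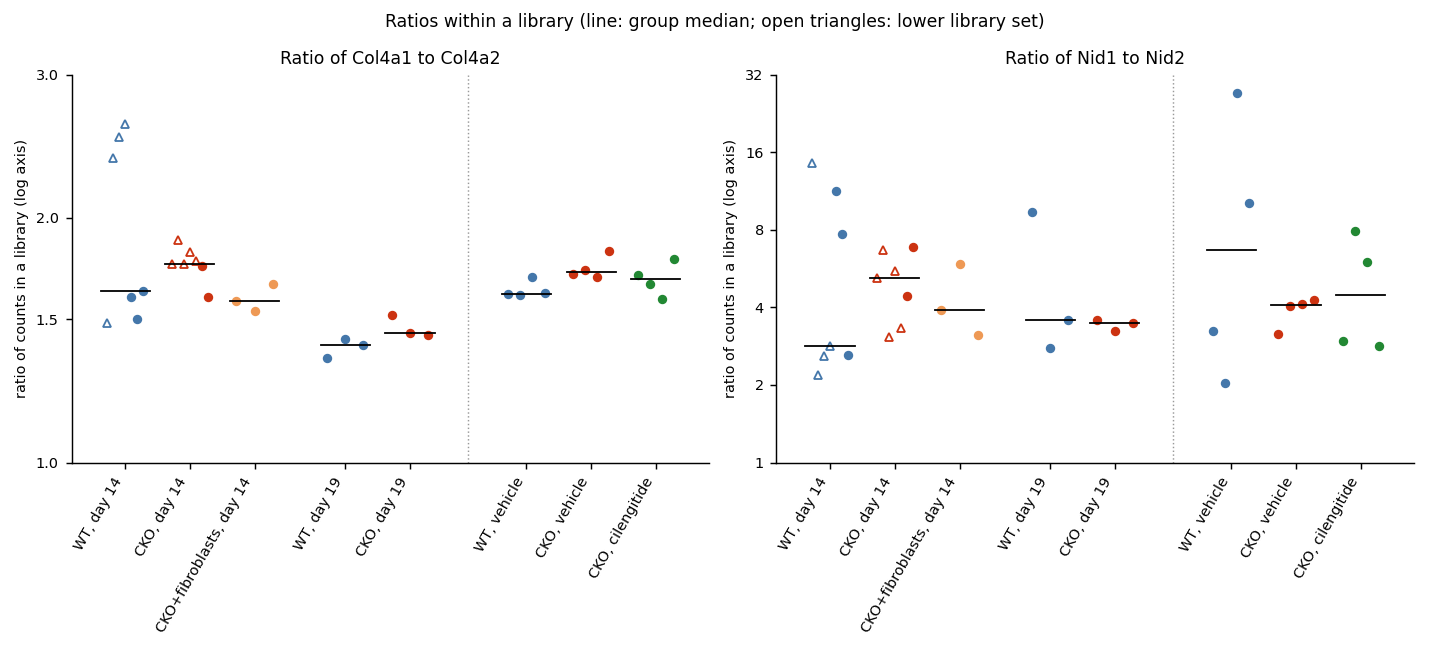
Ratio of counts of *Col4a1* to *Col4a2* and of *Nid1* to *Nid2* in each of the 35 libraries by group, on log axes; points are libraries, lines are group medians and open triangles mark the lower library set. The ratio of *Col4a1* to *Col4a2* lay between 1.34 and 1.88 except in 3 WT wounds of day 14 at 2.37 to 2.61, and that of *Nid1* to *Nid2* between 2.03 and 27.2.

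Partners of these genes in the basement membrane are given as counts called, to be read against the shares of all genes called, 5.57% higher and 2.71% lower at day 14, 17.5% and 13.4% between the vehicle groups and 6.48% and 6.59% for cilengitide against vehicle. Of 11 laminin chains, 2 of 10 tested rose at day 14, *Lamc1* (log2 fold change 1.41, adjusted p = 0.00563) and *Lamb1* (1.66, adjusted p = 0.0268), chains of widespread laminins, with a list median of 0.40 beside -0.03 for all genes. With vehicle *Lamb1*, *Lamc1* and *Lama4*, the last an alpha chain of vascular laminins, rose by 1.84, 1.29 and 1.56, and *Lama5* and *Lama1* fell by 1.56 and 1.85 on the log2 scale, with a list median of -0.04 beside 0.02. *Lama1* (2.54), *Lama5* (1.08) and *Lamc3* (1.04) rose with cilengitide against vehicle, at a list median of 1.04 beside -0.06. Of 16 proteoglycans and linkers, *Hspg2*, which codes for perlecan, rose at day 14 (1.44, adjusted p = 0.00837) and *Fras1* fell (-2.68, adjusted p = 0.0301). With vehicle *Agrn* (-1.10), *Frem2* (-6.99) and *Fras1* (-2.97) fell and *Ecm1* (1.06) rose, and *Frem2* (5.32) and *Fras1* (2.11) rose with cilengitide. *Fras1* and *Frem2* code for proteins of the membrane that anchor epidermis to dermis.

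Several enzymes that modify and crosslink collagen rose in Col5a1CKO wounds. Of 13 found in the files, 4 rose at day 14, the lysyl hydroxylases *Plod3* (1.30) and *Plod1* (1.18), the prolyl hydroxylase *P4ha1* (1.17) and the lysyl oxidase-like *Loxl1* (1.34), and with vehicle 9 rose, led by *Plod3* (1.68), *P4ha1* (1.93) and *Plod1* (1.80), while *Leprel1* (-2.0), a prolyl 3-hydroxylase, fell. The list median was 1.03 at day 14 and 1.68 with vehicle. With cilengitide *P4ha1* fell (-1.33) and *Leprel1* rose (1.34). Of 12 receptors none passed at day 14 in edgeR, and with vehicle *Ddr1* (-3.15), *Bcam* (-3.42), *Itgb4* (-2.16) and *Itga3* (-1.80) fell while *Itgb1* (1.89), *Itga1* (2.47) and *Ddr2* (1.11) rose. *Itgb4* is part of the laminin receptor of hemidesmosomes, and *Itga1*, which pairs with *Itgb1*, binds type IV collagen. With cilengitide *Ddr1* (2.26), *Bcam* (2.77) and *Itgb4* (2.52) rose and *Itga1* fell (-1.60). The receptor list median was -0.53 at day 14, -0.64 with vehicle and 0.90 with cilengitide.

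Proteases able to cut basement membrane components were also followed. Of 9 tested, 5 rose at day 14, led by the stromelysins *Mmp10* (5.18, adjusted p = 0.00579) and *Mmp3* (3.61, adjusted p = 0.0103), with *Mmp14* (1.39), *Mmp2* (1.66) and *Mmp9* (1.98). With vehicle 8 of 9 rose, led by *Mmp3* (5.61), *Ctss* (3.04), *Ctsl* (1.74) and *Mmp10* (5.31). With cilengitide 5 of 10 fell, *Ctss* (-1.54), *Mmp12* (-3.64), *Mmp3* (-2.54), *Ctsl* (-1.07) and *Mmp10* (-2.40). The list median was 1.66 at day 14, 2.73 with vehicle and -0.91 with cilengitide. At day 19 and between Col5a1CKO wounds with and without fibroblasts no gene of these 5 lists passed in edgeR.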

How the data were processed

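Bulk RNA-seq libraries were prepared with a stranded kit. The study's methods describe single-end reads aligned to NCBI37/mm9 with HISAT2 and counted over exons of RefSeq genes with SeqMonk. Whether counting used strand, and whether the same steps covered the cilengitide libraries, is not given in the sources used here. The authors deposited raw counts, 1 row a RefSeq transcript (29082 rows, 30 without a gene name) in the first table and 1 row a symbol in the second. Of several transcripts of a symbol the row with the largest total was kept, and rows without a gene name, at most 0.0694% of a library, were left out. The members and lists were chosen with earlier results of these data known. Named genes were all members, *Col5a1*, and up to 4 called genes of a list with the smallest adjusted p in a comparison, and all of those counted where 5 or fewer were called in a direction, beside the genes nearest to *Col4a1*.

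Tests on counts used edgeR 4.0.16 under R 4.3.3 (TMM factors, robust glmQLFit, filterByExpr with a minimum count of 10) within each pair of groups, adjusted over all genes tested, and the fits were tested on simulated data. Ratios were tested by exact permutation over samples (SciPy 1.17.1). RPKM used the deposited transcript lengths. Levels of log2(CPM + 1) were computed from the deposited counts for the likeness to *Col4a1* alone, log2 fold changes come from the fit. Alternatives were DESeq2 1.42.0, its size factors, library size alone, no filter, all groups in one fit, the longest transcript row, a replicate block, the library sets, other fold limits and leaving out single libraries. No sample was imputed. The titles of the cilengitide experiment carry numbers whose meaning is not stated, and the labels of the first table name no animals, so that p-values measure the spread between these samples. No pair of libraries of a group agreed within sampling noise (the smallest mean chi-square per gene was 31.3).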

Additional observations from a re-analysis of the deposited data

Results flagged for a closer look

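In groups of 4 to 10 samples, 60 sets of values were examined for a sample far from the others, and 4 were found, where chance gives about 1 in 20. *Nid1* reached 1316 CPM in 1 Col5a1CKO wound at day 14 (replicate b), far above the other 6. *Col4a4* reached 3.07 CPM in 1 Col5a1CKO wound with vehicle (replicate 2), and *Col4a3* reached 0.54 CPM in 1 WT wound at day 14 (replicate f), in both cases at few reads. The ratio of *Col4a1* to *Col4a2* was 1.69 in WT replicate 3 with vehicle, above the other 3 WT wounds.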

How the results depend on the processing

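Over the members in all comparisons, 746 alternative values kept direction and side of the threshold, 26 lost and 40 gained a call and 36 reversed; causes were not tested. Same-lettered wounds did not deviate together (correlations from -0.466 to 0.575 at day 14, -0.425 to -0.327 at day 19, -0.19 to 0.41 with fibroblasts against Col5a1CKO and 0.014 to 0.376 against WT, with 0 of 7, 0 of 3, 0 of 3 and 1 of 3 closest to their own letter), so the letters were not taken as pairs. With the replicate block 4 members were called at day 14, 0 at day 19, 3 with fibroblasts against Col5a1CKO (0 without it) and 3 against WT. Among all genes the block called 757 higher and 567 lower of 14367 at day 14, and 0 and 7 of 15135 at day 19. With fibroblasts it called 1415 and 1125 of 15162 against Col5a1CKO (0 and 0 without it). Against WT it called 1458 and 1718 of 14606. In both fibroblast comparisons the block kept only the shared letters a to c. It thus set upper-set treated wounds against lower-set Col5a1CKO or WT wounds, so that treatment and library set cannot be told apart there. With the set as covariate, or in the upper set alone, 0 genes were called higher and 0 lower against Col5a1CKO. No paired analysis was possible for the vehicle and cilengitide groups because their labels share no replicate number. At day 14, DESeq2 and all groups in one fit each called 5 members and the upper library set 1, in place of 3. Among all genes these settings called 1572, 1520 and 1348 higher and 920, 906 and 63 lower, in place of 800 and 390. DESeq2 called 4 at day 19 in place of 0, and leaving out single wounds gave 0 to 5. Among all genes DESeq2 called 708 higher and 782 lower there, and single wounds left out gave 0 to 412 and 0 to 600. With fibroblasts DESeq2 called 1 against Col5a1CKO, and against WT, in place of 2, all groups in one fit gave 4, the set as covariate 6, the upper set 7 and single wounds left out 1 to 2. Among all genes DESeq2 called 9 higher and 10 lower against Col5a1CKO. Against WT, all groups in one fit called 1021 and 970, the covariate 1535 and 1021 and the upper set 2999 and 1691. Single wounds left out gave 207 to 268 higher and 73 to 124 lower. Leaving out single wounds gave 2 to 5 calls between the vehicle groups, 1 to 2 for cilengitide against vehicle and 0 to 3 against WT, and a 3-fold limit gave 1 in each of the last 2 comparisons, where DESeq2 gave 4 against WT. Among all genes, single wounds left out gave 2194 to 2917 higher and 1816 to 2378 lower between the vehicle groups. For cilengitide they gave 695 to 1674 and 334 to 1417 against vehicle, and 1 to 1192 and 0 to 619 against WT. The 3-fold limit gave 691 and 516 against vehicle and 381 and 216 against WT. DESeq2 gave 1544 and 798 against WT. The *Nid1* to *Nid2* difference at day 14 was 0.02 on the log2 scale and -1.24 between mean linear ratios.

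No reversed value belonged to a gene called in that comparison. The replicate-block values with fibroblasts below again set upper-set treated wounds against lower-set wounds. *Col4a5* at day 14 (-0.07) became 0.11 by library size only, 0.08 with the replicate block, 0.08 with the set as covariate and 0.52 in the lower set. With fibroblasts against Col5a1CKO, the covariate and the upper set gave 0.05 and 0.11 for *Col4a1*, 0.13 and 0.19 for *Col4a2*, 0.55 and 0.61 for *Col4a3* and 0.31 and 0.37 for *Nid2*, the upper set 0.06 for *Col15a1* (-0.47 to 0.0 without single wounds), and the replicate block 3.1 for *Col4a6*. Against WT, *Col4a4* (0.03) became -0.05 with DESeq2 and with its size factors, -0.0 without the filter and -0.1 with all groups in one fit (-0.6 to 0.32 without single wounds), and the replicate block gave 3.73 for *Col4a6*, -0.43 for *Nid1* and -0.38 for *Nid2* (-0.23 to 0.33 without single wounds). Leaving out single wounds moved *Col4a3* from -0.86 to 0.57 and *Col4a4* from -1.12 to 1.25 between the vehicle groups, *Col4a3* from -0.46 to 0.24, *Col4a4* from -0.25 to 1.75 and *Col18a1* from -0.43 to 0.06 for cilengitide against vehicle, and *Col4a3* from -1.01 to 0.46 against WT. In the upper set the day difference of *Nid2* was -0.86.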
